A study of Mus musculus with 4 samples.

Results

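The insulin-like growth factor (IGF) system was examined in fetal mouse liver through 10 genes: the ligands Igf1 and Igf2, the receptor gene Igf1r, the binding protein genes Igfbp1, Igfbp2, Igfbp3, Igfbp4 and Igfbp5, the acid labile subunit gene Igfals, and Igf2bp3, which encodes an mRNA-binding protein. They were chosen by name, and a probe set counted for a gene when the platform annotation gave it that symbol alone. This yielded 30 probe sets among the 45037 of the array that were not controls, and the brightest one by mean signal stood for each gene. Of the 10 genes, 9 were bright enough to be tested, against 11691 genes tested in all. Igfbp5 was too dim.

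The genotypes compared were Sox17+/- fetuses, which carry 1 altered copy of the endoderm and endothelial transcription factor gene Sox17, and wildtype fetuses. Both were of the C57BL/6 strain on day 17 of gestation, from C57BL/6 females mated with Sox17+/- males, and each genotype had 2 biological replicates with 1 Affymetrix array each. Liver was separated from the biliary tract before RNA extraction. The Sox17 allele, the litters, the sex of the fetuses and any pooling were not stated in the sources used here. P-values therefore measure only the spread between these samples.

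IGF1 and IGF2 are secreted growth factors that act through the receptor encoded by Igf1r, and Igf2 is the main ligand of fetal growth. In plasma and tissue they are held by the IGF-binding proteins, which control how much ligand reaches the receptor, and IGFBP-3 and IGFBP-5 also bind the acid labile subunit in a long-lived ternary complex. Liver is a main source of circulating IGF1, of IGFBP-1 and, after birth, of the acid labile subunit.

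All values are MAS5 signals, a linear measure of brightness for each probe set. Every array had been scaled to a mean of 500 after trimming of 2% at each end, and the median signal lay between 84.7 and 103. Same-numbered arrays resembled each other in range: the highest signals were 56859.5 on Sox17+/- array 1 and 56988 on wildtype array 1, against 32468 on Sox17+/- array 2 and 34407 on wildtype array 2. The spike-in control BioB had 1031 on Sox17+/- array 1 and 1309 on wildtype array 1, against 436 and 438 on the arrays numbered 2. Whether the number marks a batch is not stated, and differences within each number are therefore given beside the pooled ones. Wildtype array 1 stood apart in the actin controls, with a 3' Actb signal of 11909.5 against 24712 to 35014 on the remaining arrays and a ratio of 3' to 5' Actb signal of 1.95 against 1.20 to 1.43. Its part in the differences below was not tested beyond leaving the array out. Sox17 itself had signals of 139 and 124 on the Sox17+/- arrays, against 244 and 264 on the wildtype arrays, on the brighter of its probe sets. The labelled tissue was checked with the albumin gene Alb, which had 42354 and 22768 on the Sox17+/- arrays, against 40785 and 23777 on the wildtype arrays. The number of arrays, 2 per genotype, limited the precision of every value.

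Igfbp1 had the highest ratio between genotypes of the 9 tested genes, with 2.64-fold more signal in Sox17+/- liver on the log2(signal + 16) scale used throughout, although both of its Sox17+/- signals lay near the top of their arrays. Igfals had the lowest, at 0.585 of wildtype. The bright genes Igf2 and Igfbp4 differed little, with log2 differences of -0.11 and 0.00. None passed the test across all probe sets.

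The test was limma's moderated linear model with genotype as its term, with Benjamini-Hochberg adjustment over the 22519 tested probe sets. The adjusted p was 0.9999 for each of the 9 genes, so 0 of 9 were called. Of all tested probe sets, 0% were called higher and 0% lower, with 402 higher and 521 lower at an unadjusted p under 0.05. Among the 9 genes, Igfbp1 and Igfals were under that unadjusted level, as were 4.12% of all tested genes. Such a share, from the model with genotype as its only term, is no more than this level yields without any difference between genotypes. The share depends on the model. With a block for the array number added, 742 probe sets were higher and 951 lower at that unadjusted level (limma). Genotypes did not overlap for 5 of the 9 genes. Igfbp1 and Igf1r were higher on both Sox17+/- arrays than on both wildtype arrays, 22.2% of the 9, where the background over all tested genes was 14.6%. Igf1, Igfals and Igf2bp3 were lower, 33.3%, with a background of 18.6%. With 9 genes these shares are too coarse to be set apart from the background. The median log2 difference was 0.00 over the 9 genes and -0.02 over all tested genes.

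**Figure D1:**
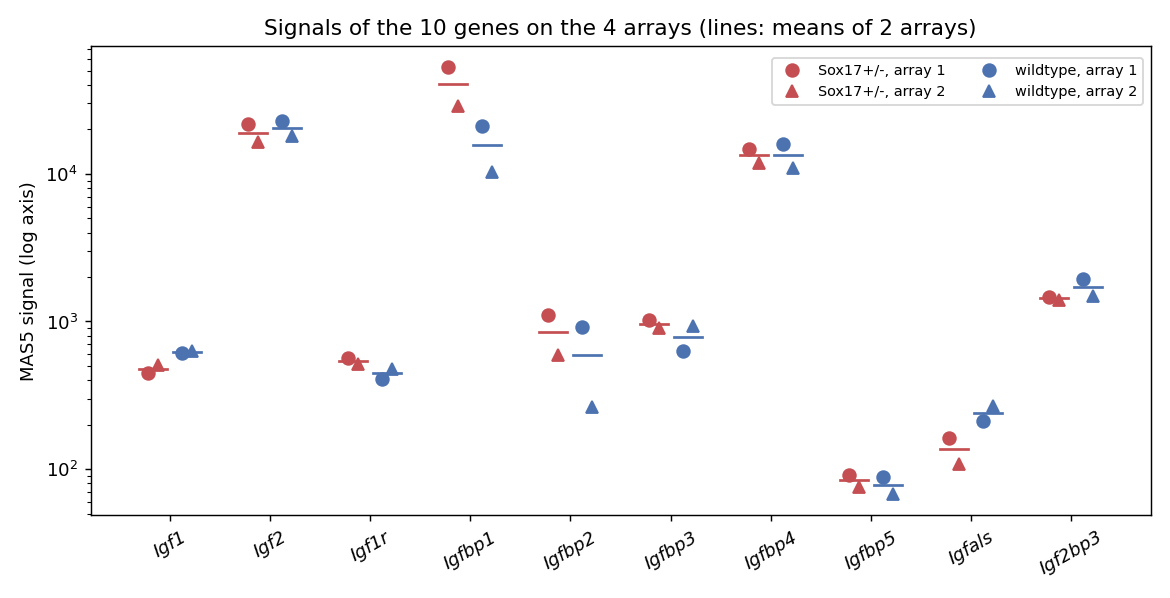
MAS5 signal (log axis) of the brightest probe set of each of the 10 genes, with Sox17+/- in red left of wildtype in blue, circles for array 1, triangles for array 2 and lines for the mean of the 2 arrays. Both Igfbp1 signals in Sox17+/- liver, 52667 and 28932, lie above both wildtype signals, while the genotypes overlap for Igf2, Igfbp2, Igfbp3, Igfbp4 and Igfbp5.

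Among the ligands, Igf2 gave strong signals in both genotypes. They were 21704 and 16311 on the Sox17+/- arrays, against 22614 and 18142 on the wildtype arrays. The genotypes overlapped, and array 1 was the brighter in each. Igf2 had a log2 difference of -0.11 with a standard error of 0.25 (limma, unadjusted p = 0.691). It was -0.06 between the arrays numbered 1 and -0.15 between those numbered 2. It turned to 0.05 without wildtype array 1 and to 0.10 without Sox17+/- array 2. A second, much dimmer Igf2 probe set was erratic, with 242 and 570 on the Sox17+/- arrays, against 50.5 and 787 on the wildtype arrays. Its differences within the numbers were 1.96 and -0.46, in opposite directions.

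Igf1, the ligand that dominates after birth, was lower in Sox17+/- liver on its brightest probe set. Signals were 447 and 508 on the Sox17+/- arrays, against 614 and 629 on the wildtype arrays, with no overlap. The means were 477 ± 42.8 in Sox17+/- liver and 622 ± 10.3 in wildtype liver (SD, n = 2 each), a log2 difference of -0.37 with a standard error of 0.20 (limma, unadjusted p = 0.123). The difference was -0.44 between the arrays numbered 1 and -0.30 between those numbered 2. Other Igf1 probe sets did not all follow. A second had 525 and 491 in Sox17+/- liver, against 534 and 636 in wildtype liver, again without overlap. Its log2 difference was smaller, at -0.19, with -0.02 between the arrays numbered 1 and -0.36 between those numbered 2. The remaining ones had log2 differences of -0.29 and, on the dimmest, 0.13, both with overlapping genotypes.

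Igf1r encodes the tyrosine kinase receptor through which both ligands signal. Its brightest probe set gave 567 and 518 on the Sox17+/- arrays, against 411 and 478 on the wildtype arrays, without overlap. This was a log2 difference of 0.28 with a standard error of 0.21 (limma, unadjusted p = 0.233), with 0.45 between the arrays numbered 1 and 0.11 between those numbered 2. Leaving out 1 array gave from 0.176, without wildtype array 1, to 0.388, without wildtype array 2. All 5 Igf1r probe sets had positive differences, from 0.28 to 0.45. On the 4 dimmer ones, 2 of which were too dim to be tested, the genotypes overlapped, and 3 of these 4 had a negative difference between the arrays numbered 2.

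Igfbp1 encodes the binding protein of fetal liver and of fasting, whose transcription is known to be repressed by insulin and induced by glucocorticoids and, in human hepatoma cells, by low oxygen. Signals were 52667 and 28932 on the Sox17+/- arrays, against 21217 and 10284 on the wildtype arrays. Both Sox17+/- signals were above both wildtype ones, and array 1 was the brighter in each genotype. The means were 40799.7 ± 16784 in Sox17+/- liver and 15750.3 ± 7730.5 in wildtype liver (SD, n = 2 each). The log2 difference was 1.40 with a standard error of 0.46 (limma, unadjusted p = 0.0272, adjusted p = 0.9999). The ratio was close to the same in each array number, 2.48 between the arrays numbered 1 and 2.81 between those numbered 2. The array number itself went with a gap as well, and array 1 over array 2 was 1.82 in Sox17+/- liver and 2.06 in wildtype liver. Leaving out 1 array gave log2 differences from 0.88, without wildtype array 2, to 1.92, without wildtype array 1. Of the 11691 tested genes, 32 had a larger positive difference. Igfbp1 has 1 probe set, so no second one could be set beside it. Both Sox17+/- signals were close to the highest of any probe set on their arrays, 56859.5 on array 1 and 32468 on array 2. Whether this limited the ratio was not tested.

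The 250 bases upstream of the Igfbp1 start are shown because this gene differed most and because its proximal promoter is a textbook insulin response region. The upstream bases of Igfbp3, the next protein-coding gene along chromosome 11 in the GRCm38.p6 annotation, are shown for contrast. Both were taken from RefSeq on GRCm38.p6, at chr11:7197537-7197786 on the plus strand for Igfbp1 and chr11:7213924-7214173 on the minus strand for Igfbp3. Capitals mark matches, on either strand, to CAAAACA and TATTTTG, the arms of the insulin response element bound by FOXO factors, to GTTAAT, a half-site of HNF1, and to ACGTG and GCGTG, the core letters of hypoxia response elements.
Igfbp1: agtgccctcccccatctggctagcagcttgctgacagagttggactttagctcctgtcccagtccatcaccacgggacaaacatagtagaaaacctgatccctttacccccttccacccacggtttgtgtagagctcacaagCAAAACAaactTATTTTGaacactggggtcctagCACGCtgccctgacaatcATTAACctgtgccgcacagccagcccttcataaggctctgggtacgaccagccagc
Igfbp3: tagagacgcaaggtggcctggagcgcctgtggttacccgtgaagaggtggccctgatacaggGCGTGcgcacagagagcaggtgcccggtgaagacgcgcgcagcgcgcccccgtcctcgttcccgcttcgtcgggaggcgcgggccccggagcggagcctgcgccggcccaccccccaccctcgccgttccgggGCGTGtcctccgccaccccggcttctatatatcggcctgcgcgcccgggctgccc

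The Igfbp1 window held CAAAACA at bases -108 to -102 and TATTTTG at bases -97 to -91, counted back from the start. They do not overlap. Of 32851 such windows, 5.56% held CAAAACA, 3.95% held TATTTTG and 0.381% held both. These motifs were picked as arms of the response element known in the Igfbp1 promoter. Their match in the Igfbp1 window was therefore fixed by that choice, and the shares do not make it a finding. Igfbp1 also had GTTAAT on the opposite strand at -56 to -51, a motif in 6.43% of windows, and 1 match to GCGTG at -74 to -70, a motif in 28.2%. GTTAAT and the hypoxia core letters were likewise picked beforehand, and their shares do not make a match a finding either. ACGTG, in 16.6% of windows, was not among the letters of either window. The Igfbp3 window had 2 matches to GCGTG and none to CAAAACA or TATTTTG, and none to GTTAAT. Its GC content was 73.2%, against 53.2% for Igfbp1 and a median of 52.4% over all windows. Letters in a window do not show that a factor binds there.

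Igfbp3 encodes the main carrier of IGFs in postnatal plasma. Its signals were 1026 and 908 on the Sox17+/- arrays, against 629 and 935 on the wildtype arrays. The genotypes overlapped, because the signal on wildtype array 2 lay between those of the Sox17+/- arrays. The log2 difference was 0.33 with a standard error of 0.27 (limma, unadjusted p = 0.274), but 0.69 between the arrays numbered 1 and -0.04 between those numbered 2. Leaving out 1 array gave from 0.045, without wildtype array 1, to 0.605, without wildtype array 2. The second Igfbp3 probe set had 639 and 769, against 558 and 643, and a log2 difference of 0.22.

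Igfbp2, a binding protein abundant in fetal tissues, varied more between array numbers than between genotypes. Signals were 1102 and 597 on the Sox17+/- arrays, against 923 and 262 on the wildtype arrays. Array 1 over array 2 was 1.85 in Sox17+/- liver and 3.53 in wildtype liver. The log2 difference between genotypes was 0.70 with a standard error of 0.64 (limma, unadjusted p = 0.321). It was 0.25 between the arrays numbered 1 and 1.14 between those numbered 2, and it turned to -0.18 without wildtype array 2.

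Igfbp4 encodes a binding protein that is known to inhibit IGF action and is cleaved by the protease PAPP-A. Signals were 14798 and 11851 on the Sox17+/- arrays, against 16040 and 10921 on the wildtype arrays, so both Sox17+/- signals lay between the wildtype ones. Their log2 difference was 0.00 with a standard error of 0.28 (limma, unadjusted p = 0.9979). It was -0.12 between the arrays numbered 1 and 0.12 between those numbered 2. The genotypes overlapped on all 6 Igfbp4 probe sets, whose differences ran from -0.15 to 0.11. Igfbp5, which encodes a matrix-associated binding protein, had only dim probe sets. Its brighter one gave 91.9 and 75.9 on the Sox17+/- arrays, against 88.9 and 67.8 on the wildtype arrays, and was not tested. Igfbp5 is the next protein-coding gene to Igfbp2 on chromosome 1 in the same annotation.

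Igfals encodes the acid labile subunit, a hepatocyte product that is known to depend on growth hormone after birth. Signals were 163 and 109 on the Sox17+/- arrays, against 212 and 270 on the wildtype arrays, without overlap. The lowest, 109 on Sox17+/- array 2, was not far above the lowest mean signal tested, 84.9. The means were 136 ± 38.1 in Sox17+/- liver and 241 ± 40.6 in wildtype liver (SD, n = 2 each). The log2 difference was -0.77 with a standard error of 0.27 (limma, unadjusted p = 0.0341, adjusted p = 0.9999). It was -0.35 between the arrays numbered 1 and -1.19 between those numbered 2. Leaving out 1 array gave from -1.03, without Sox17+/- array 1, to -0.51, without Sox17+/- array 2. Of the 11691 tested genes, 215 had a more negative difference.

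Igf2bp3 encodes an oncofetal protein that binds Igf2 mRNA among others. Its brightest probe set gave 1474 and 1401 on the Sox17+/- arrays, against 1943 and 1486 on the wildtype arrays, without overlap. The log2 difference was -0.24 with a standard error of 0.23 (limma, unadjusted p = 0.343), and it was -0.05 without wildtype array 1. Between the arrays numbered 1 it was -0.39, and between those numbered 2 it was -0.08. All 6 probe sets of Igf2bp3 had negative differences, between -0.42 and -0.13. The genotypes did not overlap on 3 of them. Over all 26 tested probe sets of these genes, 2 were higher and 6 lower without overlap, while 14.1% and 16.9% of all tested probe sets were. Probe sets of 1 gene are not independent, and of the 6 lower, 3 belonged to Igf2bp3 and 2 to Igf1.

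**Figure D2:**
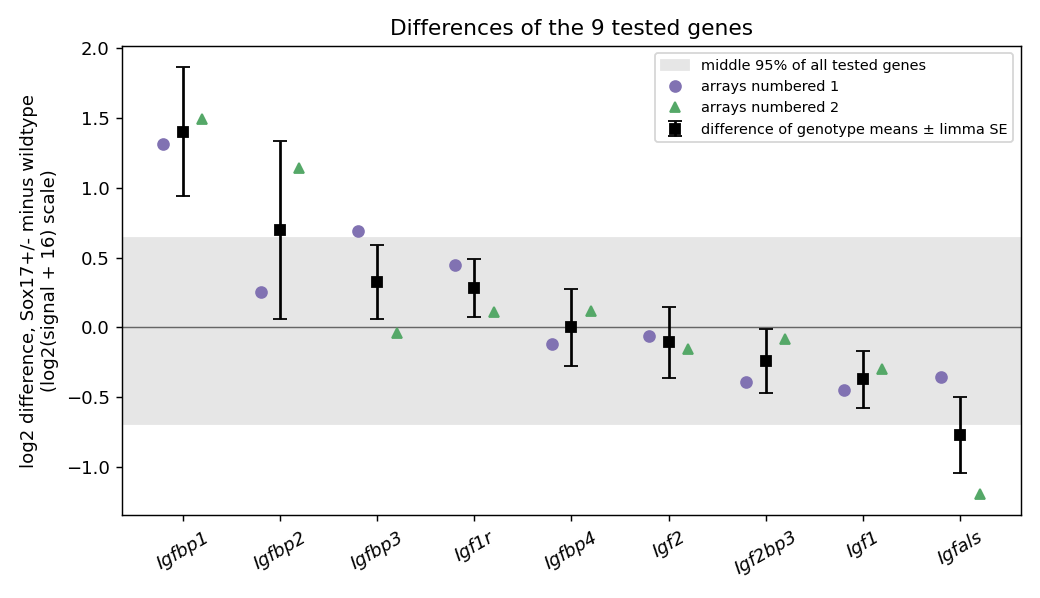
Log2 difference between Sox17+/- and wildtype liver for the 9 tested genes, as the difference of genotype means with its limma standard error (squares), within the arrays numbered 1 (circles) and within those numbered 2 (triangles). The grey band holds the middle 95% of all tested genes, and Igfbp1 (1.40), Igfbp2 (0.70) and Igfals (-0.77) lie outside it.

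**Figure D3:**
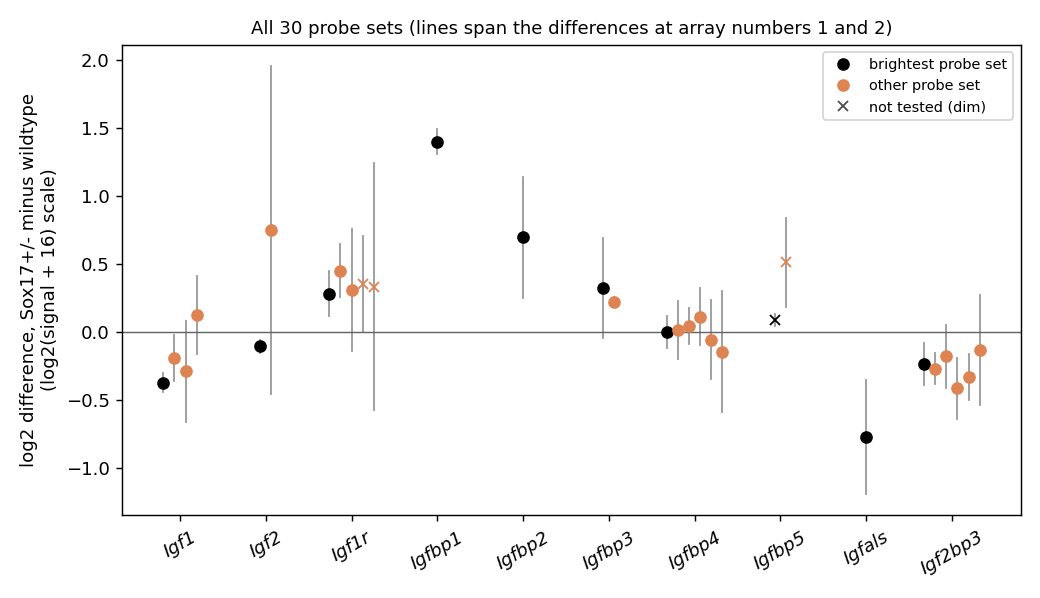
Log2 difference for all 30 probe sets, with the brightest of each gene in black, the others in orange and untested ones as crosses, and with lines that span the differences within the 2 array numbers. Points of Igf1r lie above 0 and those of Igf2bp3 below 0, while the dim Igf2 probe set spans from -0.46 to 1.96.

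Cell type markers were compared because the liver was sampled whole. In such samples a smaller number of cells and less RNA per cell cannot be told apart. Counts without overlap have a background, over all tested genes, of 14.6% higher and 18.6% lower. All 5 tested hepatocyte markers overlapped between genotypes. Their summed signal was 196835 and 113181 on the Sox17+/- arrays, against 195704 and 119329 on the wildtype arrays. Of 8 stellate cell and mesenchyme markers, 2 were higher without overlap and 1 lower, with sums from 13052 to 14446 in Sox17+/- liver, against 12759 to 13963 in wildtype liver. Among 7 endothelial markers, 4 were higher and 1 lower, with sums from 7888 to 8045, against 6285 to 7717. Of 5 erythroid markers, 1 was higher and 1 lower, with sums from 69545 to 85356, against 71112 to 80818. Of 5 macrophage markers, 3 were lower and 0 higher, with sums from 9221 to 9268, against 9607 to 11891. The biliary and pancreatic marker lists overlapped between genotypes in all of their tested members, 3 and 2 genes. Of mesothelial markers, the 1 tested was lower without overlap, with sums for the list from 211 to 229, against 324 to 336. The median log2 difference of the endothelial markers was 0.02 between the arrays numbered 1 and 0.27 between those numbered 2. For the macrophage markers it was -0.31 and -0.03, and for the 1 tested mesothelial marker -0.58 and -0.56. The part of the endothelial, macrophage and mesothelial differences in the values above was not tested.

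Related genes of the IGF pathway were taken from lists of receptors and signalling genes, further binding proteins, proteases, growth hormone genes, oncofetal regulators, imprinted growth genes, FOXO targets and hypoxia-inducible factor (HIF) targets. None of their tested genes was called by limma after adjustment (0% of all probe sets in either direction). Counts below are of genes without overlap between genotypes, for which the background was 14.6% higher and 18.6% lower.

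Receptors and intracellular signalling genes had a median near 0. Of 18 listed, 15 were tested, of which 0 were higher and 2 lower without overlap, and the median log2 difference was 0.04. Grb14, an adaptor that inhibits the insulin receptor, had signals of 547 and 441 on the Sox17+/- arrays, against 1016 and 552 on the wildtype arrays. Igf2r, the clearance receptor of IGF2, averaged 1519 ± 259 in Sox17+/- liver and 1266 ± 337 in wildtype liver (SD, n = 2 each), and the kinase gene Akt1 averaged 1230 ± 181 and 1429 ± 188, both with overlap. Of the further binding proteins and mRNA-binding paralogues, Igfbp7 and Igf2bp1 were tested, with differences of 0.04 each and overlapping genotypes.

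Of the 6 binding protein proteases and inhibitors listed, 3 were tested, and 2 of these were higher, both stanniocalcin genes, and 1 lower. Stanniocalcins are secreted glycoproteins that inhibit the pappalysins, the proteases that free IGFs from binding proteins. Stc2 had signals of 153 and 158 on the Sox17+/- arrays, against 64.9 and 85.0 on the wildtype arrays. The log2 difference was 0.93 with a standard error of 0.22 (limma, unadjusted p = 0.00743). Stc1 had 290.2 and 171 on the Sox17+/- arrays, against 56.8 and 103 on the wildtype arrays, a log2 difference of 1.36 with a standard error of 0.37 (limma, unadjusted p = 0.0127). Neither gene overlapped between genotypes. Their mean wildtype signals, 75.0 for Stc2 and 79.9 for Stc1, lay below the brightness floor of 84.9. Both genes thus entered the test only through their Sox17+/- signals, so their p-values and the count of 2 higher are no support for a difference. The metalloprotease gene Adam12 was slightly lower, at 394 ± 41.1 in Sox17+/- liver and 450 ± 18.1 in wildtype liver (SD, n = 2 each). The pappalysin genes Pappa and Pappa2 and the protease gene Htra1 were too dim to be tested.

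Growth hormone, known to act on Igf1 and Igfals through STAT5, was followed by its receptor and signalling genes. Of 7 listed, 6 were tested, and 2 were higher without overlap and 0 lower, with a median log2 difference of 0.10. Cish, a feedback inhibitor induced by STAT5, had 899 and 743 on the Sox17+/- arrays, against 717 and 531 on the wildtype arrays. The growth hormone receptor gene Ghr had 2518 and 1719, against 3155 and 2128, with overlap. Socs2, another STAT5 target, had 411 and 329, against 420 and 201, also with overlap.

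Of 5 oncofetal regulators listed, 3 were tested and 1 was higher without overlap. This was Lin28a, which encodes an RNA-binding inhibitor of let-7 processing, at 143 ± 17.4 in Sox17+/- liver and 113 ± 8.92 in wildtype liver (SD, n = 2 each). Hmga2 and Dis3l2 had differences of 0.14 and 0.02 with overlap. Among 7 imprinted growth genes listed, 6 were tested, with 1 higher and 1 lower, and the cell cycle inhibitor gene Cdkn1c had 4298 and 3527 on the Sox17+/- arrays, against 8269 and 5228 on the wildtype arrays. Its log2 difference was -0.75 with a standard error of 0.30 (limma, unadjusted p = 0.0491). Mest was the one that was higher, at 8324 ± 232 in Sox17+/- liver and 7537 ± 285 in wildtype liver (SD, n = 2 each).

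Known FOXO targets and HIF targets were set beside Igfbp1, which is known as a target of both. Of 7 FOXO and fasting targets, 5 were tested and 1 was higher without overlap and 0 lower, with a median log2 difference of 0.20. Pck1 and G6pc were too dim to be tested, so this median leaves them out. Pdk4, which restrains glucose oxidation in fasting, had 679 and 289 on the Sox17+/- arrays, against 410 and 161 on the wildtype arrays, with overlap. Sesn1 had 1849 and 1909, against 1290 and 1814, and Irs2 had 108 and 166, against 79.8 and 161. Of 10 HIF targets, 7 were higher without overlap and 0 lower, with a median log2 difference of 0.71. This list was chosen with its direction in these samples already known. Ankrd37 had a log2 difference of 2.86, Vegfa one of 0.78 and Adm, which encodes adrenomedullin, one of 1.28 (standard errors 0.49, 0.22 and 0.37). The part of either list's differences in that of Igfbp1 was not tested.

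**Figure D4:**
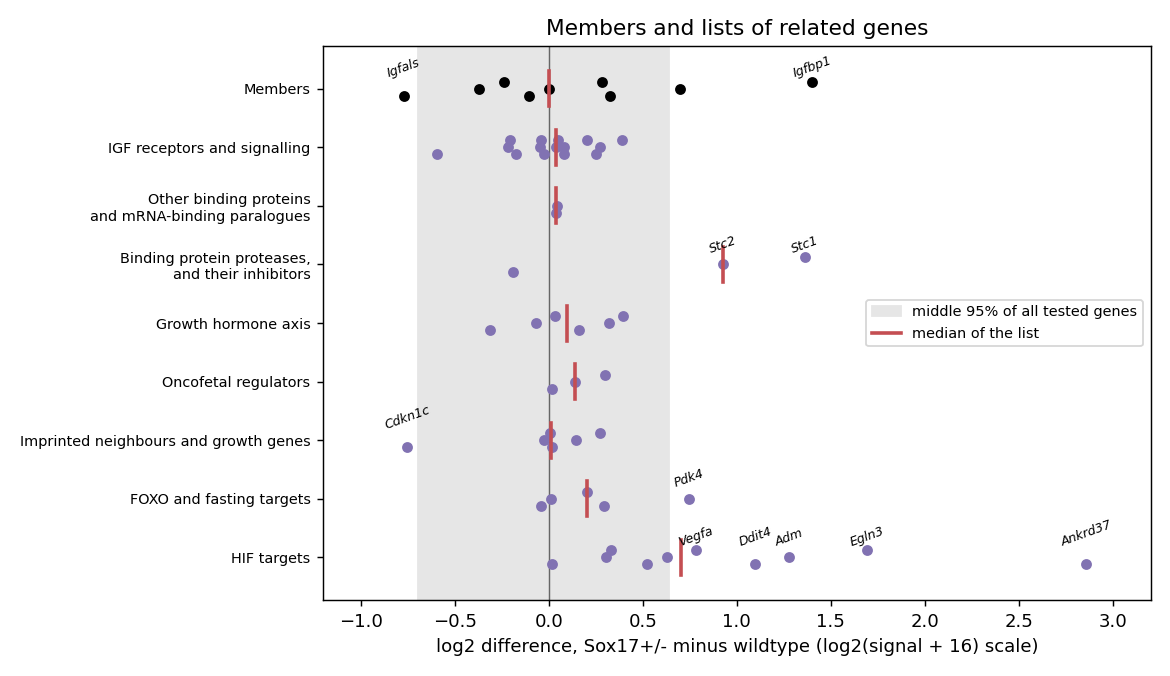
Log2 difference between Sox17+/- and wildtype liver for the tested genes of the IGF system (black) and of 8 related lists (purple), with red lines at the list medians and a grey band over the middle 95% of all tested genes. Stc1 (1.36) and Stc2 (0.93) lie above the band and Cdkn1c (-0.75) below it, and the medians are 0.71 for the HIF targets and 0.04 for the receptors and signalling genes. The HIF list was chosen with its direction in these samples already known. Stc1 and Stc2 passed the brightness filter only through their Sox17+/- signals.

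The 3 genes with the profile most like that of Igfbp1 over the 4 arrays were Maff, Efna1 and Hilpda. Likeness was the distance between log2 values centred on each gene's mean, and these were the nearest of the other tested genes at 0.23, 0.26 and 0.26. Maff, a small MAF transcription factor gene, had 1618 and 901 on the Sox17+/- arrays, against 789 and 326 on the wildtype arrays. Efna1, which encodes an ephrin ligand, had 1680 and 881, against 549 and 256. Hilpda, a lipid droplet gene induced by low oxygen, had 1616 and 746, against 689 and 319. In each of them, as in Igfbp1, array 1 was brighter than array 2 in both genotypes and Sox17+/- was brighter than wildtype in both array numbers. This shared pattern follows from how the genes were chosen and is not a separate result. With 4 arrays many genes can share such a profile.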

How the data were processed

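Total RNA from 4 fetal livers or liver samples was labelled and hybridised to 1 Affymetrix array each, per the labels' protocols. The deposited intensity values are MAS5 signals on a linear scale, per the submitters' processing notes, and their trimmed mean of 500 was seen in the values. MAS5 makes signals from each array alone, and scaling removes differences in total RNA. Of 45101 probe sets, 64 controls were left out, 34945 of the rest had 1 gene symbol, 932 several and 9160 none listed here. Of those with 1 symbol, 34741 matched RefSeq by gene number and 0 symbols needed updating.

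Values were analysed as log2(signal + 16), so folds of dim genes are understated. Only the upper 50% of probe sets by mean log2 value over the 4 arrays entered the two-sided test, which used lmFit and eBayes of limma 3.58.1 (R 4.3.3) and Benjamini-Hochberg adjustment at 0.05. Residual and prior degrees of freedom were 2 and 3.24. The code was tested on simulated data. An exact permutation test of 2 against 2 cannot give a p below 0.333 and was not used.

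Genes named are the 10 of the IGF system, Sox17, up to 3 genes of each of 8 related lists by smallest p (Igf2r, on 2 lists, is described once), further genes of these lists given by their differences, by their role or because a count of 1 needed its name, and the 3 genes nearest to Igfbp1. The genes, lists, motifs and tests were chosen with earlier results of these data known. Alternatives were other pseudocounts, filters, normalizations and priors, a mean over probe sets, a block for the array number, and leaving out each array.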

Additional observations from a re-analysis of the deposited data

How the results depend on the processing

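With the array number as a replicate block, 0 probe sets were called in either direction, and Igfbp1 kept its log2 difference of 1.40 with an unadjusted p of 0.000939 (limma, adjusted p = 0.514). The block ended or made no call for any of the 9 genes. Same-numbered arrays deviated together (r = 0.383 across 22519 probe sets, which are not independent), but 2 pairs do not establish pairing. Median centring gave 5 probe sets called higher and a trended, robust prior gave 3, against 0; none of these stood for an IGF gene. The adjusted p of Igfbp1 ran from 0.514 to 1 over its 13 alternatives, and its log2 difference was positive in each, from 0.88 to 1.92, and that of Igfals negative in all 12 run for it, from -1.03 to -0.51. Averaging all probe sets turned Igf2 to 0.32 and Igfbp4 to -0.005 and moved the median of the 9 genes to 0.274. Leaving out 1 array at a time gave ranges from -0.312 to 0.10 for Igf2, -0.182 to 1.575 for Igfbp2, -0.276 to 0.278 for Igfbp4 and -0.265 to 0.161 for the median. The count of genes higher without overlap was then 2 to 4, and of those lower 3 to 5, the highest counts being without wildtype array 1 or Sox17+/- array 2 for the first and without wildtype array 2 for the second. With 1 array set against 2, a lack of overlap is easier to reach, so these counts are not comparable with those from all arrays. With all arrays and median centring, 3 of the 9 genes were higher without overlap and 2 lower, against 2 and 3 without centring. The share over all tested genes was not computed for these settings. The causes were not tested. Igfals could not be given among the brighter 25% of probe sets, which leave it out. Probe sets with a mean signal below 84.9 (mean taken on the log2 scale), such as those of Igfbp5, were not tested, and 2 arrays per genotype limit the rest.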
